A study of Mus musculus with 28 samples.

Results

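Interleukins and their receptors were followed as a group of 77 genes, which were all rows of the array whose single annotated gene symbol begins with Il and a number, out of 65956 rows tested. They divide by role into 37 ligands, 34 receptor or signalling subunits, and 6 antagonists, decoy receptors or binding proteins, the last called regulators here. Each of the 77 genes had 1 row. The samples were cortical tissue of mice aged 12-15 weeks, with 7 animals in each of 4 groups: KO CCI, WT CCI, KO sham and WT sham. KO stands for a knockout of Rbm5, which encodes an RNA-binding splicing factor, and WT for wild type. The labels give neither the Rbm5 allele nor the strain. CCI is controlled cortical impact, a piston blow that produces a focal contusion. It was made through a craniotomy over the left parietal cortex at 6 m/s and a depth of 1.2 mm, whereas sham animals were anaesthetised without a craniotomy, so that the CCI groups differ from the sham groups by the opening of the skull as well as by the impact. Tissue was collected at 48 h in all groups after perfusion with cold PBS. Both sexes were present in each group, with 3 males among the KO CCI animals, 3 among WT CCI, 4 among KO sham and 3 among WT sham. RNA from whole tissue was hybridised to MTA 1.0 arrays, and the deposited values are log2 signals, so that a difference of 1 is a doubling of signal. In such bulk tissue, fewer cells of a type and less RNA per cell cannot be told apart.

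Interleukins are secreted or released proteins by which leukocytes, glia and other cells act on one another. Cytokines of the IL-1 family signal through paired receptor chains that recruit Myd88 and activate NF-kappaB, and they are held in check by a receptor antagonist and by a decoy receptor that binds ligand without signalling. Receptors outside the IL-1 and IL-17 families are mostly assembled from a ligand-specific chain and a chain shared by several cytokines. They signal through Jak kinases and Stat transcription factors. In injured brain, IL-1 and IL-6 are among the early inflammatory signals, and IL-4 and IL-13 are known for steering macrophages and microglia towards repair.

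The genotype labels were checked on the Rbm5 row. Rbm5 signal was 9.71, 9.74 and 9.80 (lowest, median and highest of 7 arrays) in KO CCI, against 10.59, 10.65 and 10.79 in WT CCI cortex. In sham cortex it was 9.66, 9.78 and 9.84 in KO, against 10.70, 10.78 and 10.82 in WT. No KO array overlapped a WT array, although the KO signal was lower rather than absent (KO minus WT -0.91 after CCI and -1.02 after sham), and which part of the gene is deleted is not stated in the labels. Array medians lay between 5.79 and 5.90. Among markers of cell types, 6 of 6 monocyte and macrophage genes were called higher after CCI in both genotypes, 5 of 6 neutrophil genes in KO and 6 of 6 in WT, and 3 of 3 cortex genes were called lower in both. All 5 measured T cell genes and all 3 measured B cell genes averaged below the lowest array median of 5.79 in every group, and 1 T cell gene was called lower after CCI in WT (none without the 7 arrays described next). The labelled tissue was also checked for neighbouring regions: the mean of 4 striatum markers ranged over 6.97 to 10.3 in KO CCI and 7.08 to 8.35 in KO sham cortex, and 6.95 to 9.92 in WT CCI and 6.9 to 7.51 in WT sham cortex. For 5 choroid plexus markers the means were 5.43 to 8.16 in KO CCI and 5.31 to 6.09 in KO sham cortex, and 5.48 to 8.48 in WT CCI and 5.5 to 8.24 in WT sham cortex. The injury and genotype comparisons were also run without the 7 arrays with high signal of either region, a choice made after seeing the data, and calls of named genes that this ended are given beside them. The 7 were KO CCI replicates 22 and 40, WT CCI replicates 13, 14, 16 and 35 and WT sham replicate 25, so that leaving them out took more arrays from WT CCI than from any other group. Precision here is set by having 7 arrays per group.

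The first question was what the injury did to interleukin genes in each genotype. Injury raised 17 and lowered 4 of the 77 genes in KO cortex (KO CCI minus KO sham), against 8.43% of all rows called higher and 8.27% called lower in that comparison. In WT cortex (WT CCI minus WT sham) it raised 16 and lowered 2, against 8.86% of all rows higher and 7.96% lower. A call is an adjusted p under 0.05 in limma, with Benjamini-Hochberg adjustment over all 65956 rows. The called genes were mainly those of the IL-1 family, the chains Il4ra and Il13ra1 of the receptor for IL-4 and IL-13, and the chains Il6st, Il6ra and Il10rb. Receptors made up more of the calls than ligands did. In KO, 9 of 34 receptors were higher and 3 lower, against 6 of 37 ligands higher and 1 lower. In WT, 9 receptors were higher and 2 lower, against 5 ligands higher and none lower. All rows gave 11017 calls of 65956 in either direction in KO and 11094 in WT, a share near that of the ligands. The lower receptors included Il1rapl1 and Il1rapl2, described below as synaptic adhesion proteins. Receptors were also brighter. In all 4 groups, 14 of 34 had means above the lowest array median of 5.79, against 5 of 37 ligands. The part of brightness in these counts was not tested. Of the 6 regulators, Il1rn and Il1r2 were higher in both genotypes and none was lower. The medians were small. The median log2 change was 0.03 for ligands, 0.04 for receptors and 0.01 for all rows in KO, and -0.02, 0.01 and -0.02 in WT. With each array centred on its median, the KO medians of both roles fell below 0, to -0.02 for ligands and -0.00151 for receptors. Over all rows, the KO calls then divided into 4021 higher and 7576 lower in place of 5560 and 5457, and the WT calls into 5391 and 5610 in place of 5843 and 5251. With that centring, Il6ra, Il11 and Il21r were no longer called in KO, no other called interleukin gene lost its call, and the lower calls numbered 7 in KO and 3 in WT, with Il17c among them in both.

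The calls of both genotypes were largely shared. Of the 77 genes, 16 were called in both in the same direction, 14 higher and 2 lower, which is 76.2% of the KO calls and 88.9% of the WT calls. None was called in opposite directions. Il18, Il11, Il19, Il1rap and Il21r were called in KO alone, Il6 and Il17rc in WT alone, and 54 in neither. Across the 77 genes the changes of both genotypes had a Pearson r of 0.966, a description over genes measured on the same arrays. The shared calls and the r were not computed over all rows, so they are not shown to be particular to interleukin genes.

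**Figure D1:**
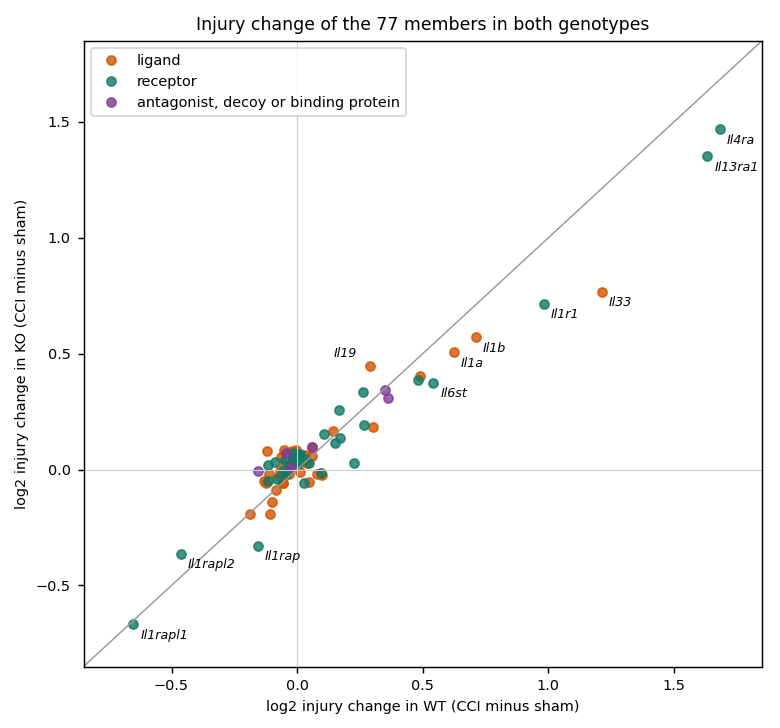
Log2 injury change (CCI minus sham) of each of the 77 genes in KO (vertical axis) against WT (horizontal axis), with ligands, receptors and regulators in separate colours and the line of equality in grey. Il4ra, Il13ra1, Il33 and Il1r1 lie far to the upper right and below the line, Il1rapl1 lies at the lower left, and most points crowd around 0.

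**Figure D2:**
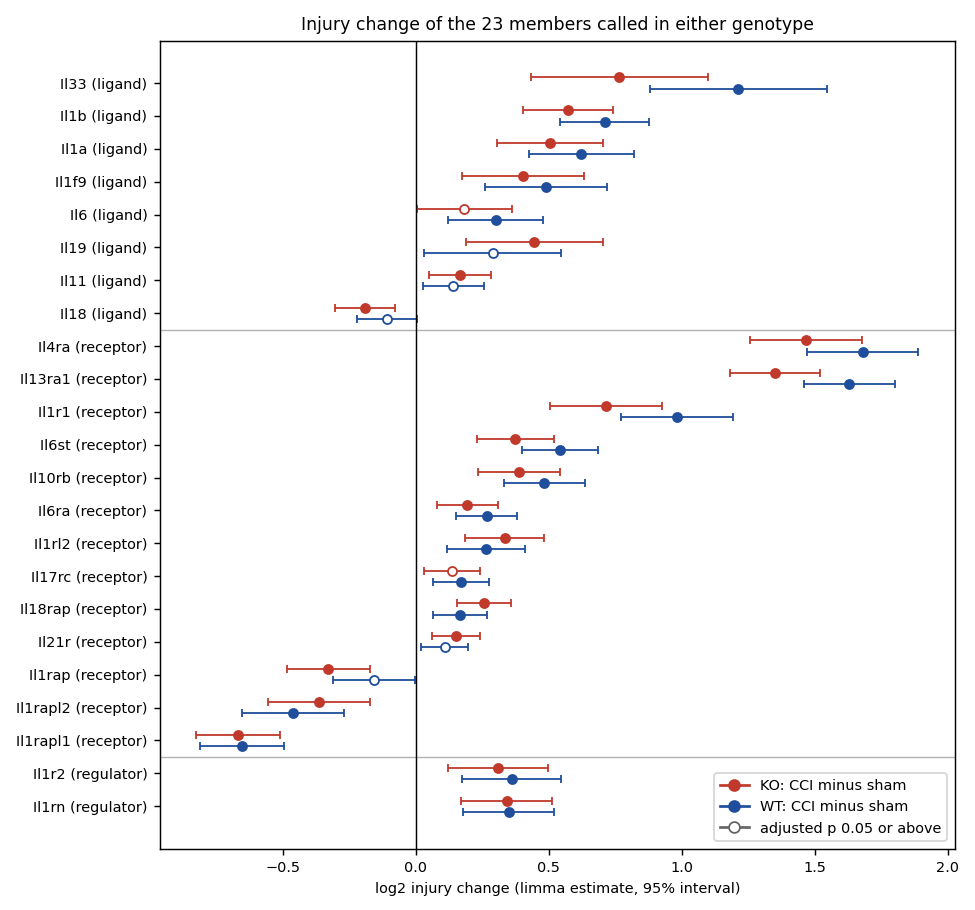
Log2 injury change (horizontal axis, limma estimate with 95% interval) of the 23 genes called in either genotype, KO in red above WT in blue, with ligands at the top, receptors in the middle and regulators at the bottom. Open circles mark an adjusted p of 0.05 or above; in every such pair the interval of the uncalled genotype overlaps that of the called one.

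Il4ra and Il13ra1 had the biggest increases of any interleukin gene in both genotypes. Il4ra (chr7:125552271-125579474 on GRCm38.p6, the RefSeq build used for all positions here) encodes the IL-4 receptor alpha chain, and Il13ra1 (chrX:36112108-36171262) the chain that pairs with it to form a receptor for both IL-4 and IL-13. In KO cortex, Il4ra signal was 8.23, 8.29 and 8.77 after CCI (lowest, median and highest of 7 arrays), against 6.77, 6.90 and 7.05 after sham. For WT the signal was 8.17, 8.73 and 9.02 after CCI, against 6.74, 6.91 and 7.03 after sham. Every CCI array was above every sham array in both genotypes, and the WT CCI arrays were spread more widely than those of the other groups. The fitted Il4ra change was 2.77-fold in KO (log2 1.47, SE 0.102, limma adjusted p = 5.71e-11) and 3.21-fold in WT (log2 1.68, SE 0.102, limma adjusted p = 1.99e-12).

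Il13ra1 behaved in the same way. Its signal was 8.68, 8.97 and 9.10 in KO CCI, against 7.45, 7.49 and 7.74 in KO sham cortex. WT cortex gave 8.85, 9.22 and 9.34 after CCI, against 7.40, 7.52 and 7.68 after sham. Again no injured array overlapped a sham array. The change was 2.55-fold in KO (log2 1.35, SE 0.0831, limma adjusted p = 5.99e-12) and 3.1-fold in WT (log2 1.63, SE 0.0827, limma adjusted p = 5.90e-14).

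The ligands of this receptor did not pass the test. Il4 had means of 4.76 ± 0.0816 in KO CCI and 4.82 ± 0.0923 in KO sham cortex, and of 4.80 ± 0.0886 in WT CCI and 4.86 ± 0.0615 in WT sham cortex (SD, n = 7). Its log2 change had an interval of -0.16 to 0.04 in KO and -0.16 to 0.04 in WT. For Il13 the interval was -0.07 to 0.18 in KO and -0.13 to 0.11 in WT. Both ligands lay below the lowest array median of 5.79 in all 4 groups. Il13ra2, a decoy receptor for IL-13, changed by -0.01 in KO and -0.16 in WT (limma adjusted p = 0.977 and 0.187) and was not called. Stat6, the transcription factor that this receptor activates, was higher after CCI in both genotypes, by 0.19 in KO and 0.35 in WT on the log2 scale (limma adjusted p = 0.00529 and 4.24e-06).

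**Figure D3:**
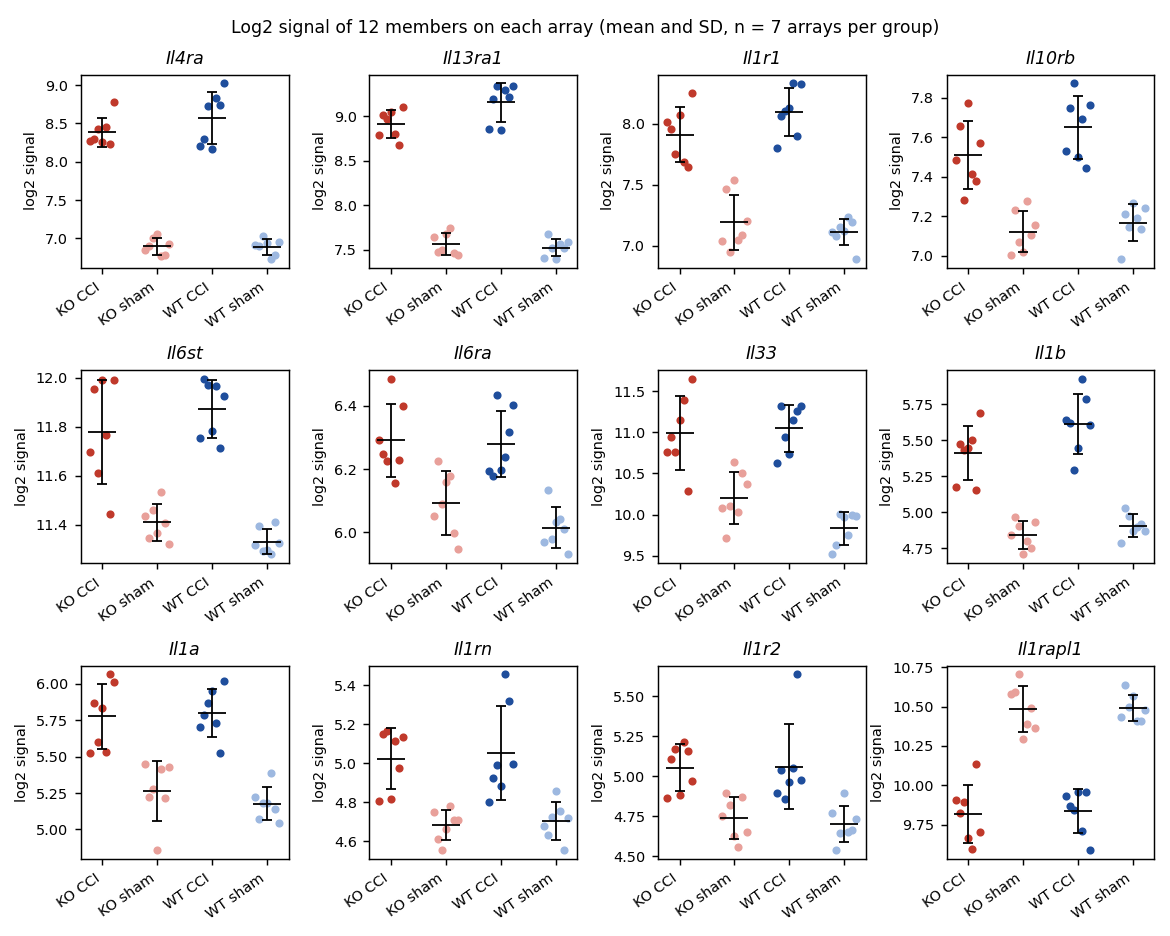
Log2 signal (vertical axes, each on its own scale that does not start at 0) of 12 interleukin genes on each of the 28 arrays, with the mean and SD of each group of 7. Il4ra, Il13ra1, Il1r1, Il10rb and Il1b show injured arrays clear of sham arrays in both genotypes, whereas Il1rapl1 is lower on all injured arrays and the Il6ra groups of KO overlap.

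The region around an annotated transcription start was read for the called genes, to show the sequence there for those whose signal moved together after injury. A gene could have several windows, and the start of a window need not be the outermost one of the gene. The windows with a match in Il1r2, Il1r1, Il19 and Il11 lie inside the annotated gene, and that of Il1a mostly does. Of the 77 genes, 60 had a RefSeq promoter window of 300 bases (250 before the start and 50 after it) on GRCm38.p6, including 22 of the 23 called ones. Each window was searched on both strands for the Stat motif TTCNNNGAA, for the AP-1 motif TGANTCA and for the NF-kappaB consensus. Each window printed here held at most 1 match. Of all 32851 windows in the table, 8.3% held the Stat motif, 7.81% the AP-1 motif and 8.46% the NF-kappaB consensus. Among the 73 windows of interleukin genes the shares were 13.7%, 19.2% and 11%. The 27 windows of called genes held them in 3, 4 and 4 cases. The 4 windows below are those of the receptor pair with the biggest increase, of an IL-1 ligand and of the IL-1 decoy receptor. Each runs 5′ to 3′ along the gene's strand, and capitals mark a match of the NF-kappaB consensus in Il4ra, of AP-1 in Il1a and of Stat in Il1r2. Il13ra1 held no match of the 3 motifs. Counted from the start, with minus for bases before it, the match begins at 20 in Il4ra, at -12 in Il1a and at -111 in Il1r2.
Il4ra (chr7:125552021-125552320, plus strand): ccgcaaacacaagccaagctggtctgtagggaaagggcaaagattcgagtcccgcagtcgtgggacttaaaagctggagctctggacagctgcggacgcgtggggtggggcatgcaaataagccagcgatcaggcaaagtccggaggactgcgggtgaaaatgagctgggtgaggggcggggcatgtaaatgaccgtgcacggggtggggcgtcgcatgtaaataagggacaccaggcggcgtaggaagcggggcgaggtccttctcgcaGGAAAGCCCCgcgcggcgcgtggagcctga
Il13ra1 (chrX:36111858-36112157, plus strand): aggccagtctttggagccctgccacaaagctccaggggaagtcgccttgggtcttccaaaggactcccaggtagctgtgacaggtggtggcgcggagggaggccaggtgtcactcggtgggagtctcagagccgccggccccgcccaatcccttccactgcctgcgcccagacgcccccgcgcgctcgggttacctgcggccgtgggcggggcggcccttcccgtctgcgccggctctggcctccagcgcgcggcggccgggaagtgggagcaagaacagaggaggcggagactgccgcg
Il1a (chr2:129309923-129310222, minus strand): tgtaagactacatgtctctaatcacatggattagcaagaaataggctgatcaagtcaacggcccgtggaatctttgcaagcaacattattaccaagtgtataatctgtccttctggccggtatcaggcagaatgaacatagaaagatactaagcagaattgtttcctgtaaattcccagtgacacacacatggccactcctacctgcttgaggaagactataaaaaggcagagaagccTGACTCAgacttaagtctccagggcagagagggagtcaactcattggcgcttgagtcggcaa
Il1r2 (chr1:40085843-40086142, plus strand): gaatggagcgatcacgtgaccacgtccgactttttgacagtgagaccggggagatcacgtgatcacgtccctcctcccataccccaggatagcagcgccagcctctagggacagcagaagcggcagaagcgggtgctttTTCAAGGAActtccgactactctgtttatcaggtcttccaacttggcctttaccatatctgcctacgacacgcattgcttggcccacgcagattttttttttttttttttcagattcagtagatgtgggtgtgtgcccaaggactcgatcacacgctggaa
Among the other called genes, Il1r1 and Il6 held an NF-kappaB match, Il1rn, Il6 and Il11 an AP-1 match, Il1f9 a Stat match, and Il19 both a Stat and an NF-kappaB match. A match of letters is a description of the window and not evidence of binding.

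Among the 8 IL-1 family ligands, Il33, Il1b, Il1a and Il1f9 rose after injury in both genotypes. Il33 (chr19:29925113-29960718) encodes a nuclear cytokine released from damaged cells, which in brain is made by oligodendrocytes and astrocytes. Its signal was 10.29, 10.94 and 11.65 in KO CCI, against 9.71, 10.10 and 10.64 in KO sham cortex. The WT arrays gave 10.63, 11.15 and 11.32 after CCI, against 9.52, 9.97 and 10.01 after sham. The WT groups were separate, while the lowest KO CCI array fell within the range of KO sham, whose arrays reached higher than those of WT sham. The change was 1.7-fold in KO (log2 0.77, SE 0.163, limma adjusted p = 0.00109) and 2.32-fold in WT (log2 1.21, SE 0.162, limma adjusted p = 2.21e-06). Markers of the cells named did not all move with Il33. None of 3 measured oligodendrocyte genes was called in KO and 3 of 3 were higher in WT (1 of 3 without the 7 arrays with striatum or choroid plexus signal), with list means of 9.42 to 10.6 in KO CCI and 9.8 to 10.5 in KO sham cortex, and 10.4 to 10.7 in WT CCI and 9.54 to 10.1 in WT sham cortex. Of 5 astrocyte genes, 2 were higher and 1 lower in KO, and 3 were higher and 1 lower in WT, with list means of 10.9 to 11.4 in KO CCI and 10.1 to 10.9 in KO sham cortex, and 10.8 to 11.5 in WT CCI and 10.1 to 10.2 in WT sham cortex. Their part in the Il33 change was not tested.

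Il1b (chr2:129364569-129371164) and Il1a (chr2:129299609-129310186) encode the classical agonists of the IL-1 receptor. Il1b signal was 5.16, 5.44 and 5.69 in KO CCI, against 4.71, 4.84 and 4.97 in KO sham, and 5.29, 5.62 and 5.93 in WT CCI, against 4.78, 4.90 and 5.03 in WT sham cortex. Il1a signal was 5.52, 5.83 and 6.06 in KO CCI, against 4.86, 5.28 and 5.45 in KO sham, and 5.53, 5.79 and 6.02 in WT CCI, against 5.04, 5.18 and 5.39 in WT sham cortex. For both genes the injured and sham arrays of each genotype did not overlap. Il1b rose 1.49-fold in KO and 1.64-fold in WT (limma adjusted p = 9.98e-06 and 1.95e-07). Il1a rose 1.42-fold in KO and 1.54-fold in WT (limma adjusted p = 3.61e-04 and 1.84e-05). Il1f9, now named IL-36 gamma, rose 1.32-fold and 1.4-fold (adjusted p = 0.0114 and 0.00204), with overlap of injured and sham arrays in both genotypes. In the KO comparison its adjusted p was 0.0501 without the 7 arrays with striatum or choroid plexus signal.

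Il18 (chr9:50554700-50581841), whose protein is matured by caspase-1, went the other way. Its signal was 7.38, 7.55 and 7.79 in KO CCI, against 7.65, 7.71 and 7.95 in KO sham cortex. In WT cortex it was 7.48, 7.59 and 7.67 after CCI, against 7.61, 7.66 and 7.79 after sham. The groups overlapped in both genotypes. Il18 fell by 0.19 on the log2 scale in KO (limma adjusted p = 0.014, and 0.0692 with only the KO arrays in the fit), while the WT change of -0.11 did not pass (adjusted p = 0.204). The difference between these changes had an interval of -0.24 to 0.07 and was not called.

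Of the 7 IL-1 family receptor genes, 3 were higher and 3 lower in KO and 3 higher and 2 lower in WT. All rows gave 8.43% higher and 8.27% lower in KO, and 8.86% and 7.96% in WT. The ones that rose were Il1r1, Il1rl2 and Il18rap. Il1r1 (chr1:40222480-40316201) encodes the signalling receptor of IL-1 alpha and beta. Its signal was 7.64, 7.96 and 8.25 in KO CCI, against 6.95, 7.09 and 7.54 in KO sham cortex. For WT the signal was 7.80, 8.11 and 8.33 after CCI, against 6.89, 7.12 and 7.23 after sham. No injured array overlapped a sham array of the same genotype. The change was 1.64-fold in KO (log2 0.72, SE 0.103, limma adjusted p = 9.92e-06) and 1.97-fold in WT (log2 0.98, SE 0.102, limma adjusted p = 3.62e-08). Il1rl2, the receptor chain for IL-36, changed by 0.33 in KO and 0.26 in WT (adjusted p = 0.00125 and 0.00975), with overlapping arrays. Il18rap, the accessory chain of the IL-18 receptor, changed by 0.26 and 0.17 (adjusted p = 4.34e-04 and 0.0191). Its WT call was lost without WT CCI replicate 35 (adjusted p = 0.0546), without the 7 arrays with striatum or choroid plexus signal (0.163) and with only the WT arrays in the fit (0.0527). Il18r1, which binds IL-18, was not called, with changes of 0.07 and 0.01.

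Both IL-1 inhibitors rose beside the agonists. Il1rn (chr2:24336860-24351491) encodes the IL-1 receptor antagonist. Its signal was 4.81, 5.12 and 5.17 in KO CCI, against 4.56, 4.71 and 4.78 in KO sham, and 4.80, 4.99 and 5.45 in WT CCI, against 4.56, 4.72 and 4.86 in WT sham cortex. The KO groups did not overlap, and the lowest WT CCI array fell within the WT sham range. The change was 1.27-fold in KO and 1.27-fold in WT (limma adjusted p = 0.00429 and 0.00319). Il1r2 (chr1:40084692-40125230) encodes the decoy receptor. Its signal was 4.86, 5.11 and 5.21 in KO CCI, against 4.56, 4.75 and 4.89 in KO sham, and 4.86, 4.98 and 5.64 in WT CCI, against 4.54, 4.66 and 4.89 in WT sham cortex. Injured and sham arrays overlapped in both genotypes, and 1 WT CCI array stood above the others. Il1r2 changed by 0.31 in KO and 0.36 in WT on the log2 scale (adjusted p = 0.0186 and 0.00546). The KO call was lost without KO CCI replicate 40 (adjusted p = 0.0516), and the WT call without the 7 arrays with striatum or choroid plexus signal (adjusted p = 0.0804). Il18bp, which binds and neutralises IL-18, was not called, with intervals of -0.02 to 0.22 in KO and -0.06 to 0.18 in WT.

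Several of these genes are neighbours. Il1r2, Il1r1, Il1rl2 and Il18rap lie in the same stretch of chromosome 1, the last of them at chr1:40515362-40551707, with the uncalled Il18r1 between Il1rl2 and Il18rap. On chromosome 2, the uncalled Il1f6, Il1f5 and Il1f10 lie between Il1f9 (chr2:24186476-24193567) and Il1rn.

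The genes that fell in both genotypes were Il1rapl1 and Il1rapl2, members of the IL-1 receptor family that neurons use as synaptic adhesion proteins rather than as cytokine receptors. Il1rapl1 (chrX:86740937-88115948) signal was 9.60, 9.83 and 10.13 in KO CCI, against 10.29, 10.49 and 10.70 in KO sham cortex. WT cortex gave 9.59, 9.87 and 9.96 after CCI, against 10.41, 10.48 and 10.64 after sham. Every injured array was below every sham array in both genotypes. Il1rapl1 was 1.59-fold lower after injury in KO (log2 -0.67, SE 0.0771, limma adjusted p = 3.52e-07) and 1.57-fold lower in WT (log2 -0.65, SE 0.0767, limma adjusted p = 2.86e-07). Il1rapl2 changed by -0.36 in KO and -0.46 in WT (adjusted p = 0.00634 and 5.51e-04). Its KO groups overlapped, its WT groups did not, and the KO call was lost without the 7 arrays with striatum or choroid plexus signal (adjusted p = 0.0823).

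Il1rap (chr16:26581509-26730128) encodes the accessory chain that IL-1, IL-33 and IL-36 receptors share, and a brain isoform of it also acts at synapses. Its signal was 9.14, 9.41 and 9.69 in KO CCI, against 9.64, 9.75 and 9.83 in KO sham cortex. The WT arrays gave 9.27, 9.38 and 9.66 after CCI, against 9.29, 9.58 and 9.69 after sham. The KO sham arrays stood mostly above those of the other groups. Il1rap was 1.26-fold lower after injury in KO (log2 -0.33, limma adjusted p = 0.00247), and its WT change of -0.16 did not pass (adjusted p = 0.178). The difference of the changes, with an interval of -0.39 to 0.05, was not called. Neuron markers moved beside these genes. Of 5 neuron genes, 3 were lower after CCI in both genotypes, and the list means were 14.3 to 14.5 in KO CCI and 14.6 to 14.8 in KO sham cortex, and 14.3 to 14.7 in WT CCI and 14.7 to 14.7 in WT sham cortex. For 3 cortex genes, all lower, they were 10.5 to 11.1 in KO CCI and 11.5 to 11.8 in KO sham cortex, and 10.5 to 11 in WT CCI and 11.5 to 11.8 in WT sham cortex. The part of these markers in the falls was not tested.

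In the IL-6 and IL-12 family, 3 of 14 genes were higher and none lower in each genotype. Of all rows, 8.43% were higher in KO and 8.86% in WT. Il6st (chr13:112464070-112506860) encodes gp130, the signalling chain shared by IL-6, IL-11, LIF and oncostatin M. Its signal was 11.44, 11.77 and 11.99 in KO CCI, against 11.32, 11.41 and 11.54 in KO sham cortex. In WT cortex it was 11.71, 11.93 and 12.00 after CCI, against 11.28, 11.32 and 11.41 after sham. The WT groups were separate and the KO groups overlapped through the lowest KO CCI array. The change was 1.3-fold in KO (log2 0.37, SE 0.0703, limma adjusted p = 3.03e-04) and 1.46-fold in WT (log2 0.54, SE 0.0699, limma adjusted p = 1.32e-06). Il6ra, the IL-6 binding chain, had signals of 6.16, 6.25 and 6.49 in KO CCI, against 5.95, 6.09 and 6.23 in KO sham, and 6.18, 6.24 and 6.43 in WT CCI, against 5.93, 6.01 and 6.13 in WT sham cortex. It changed by 0.19 in KO and 0.27 in WT (adjusted p = 0.0155 and 8.96e-04), and the KO groups overlapped. The KO call was lost without KO sham replicate 33 (adjusted p = 0.0519), as well as with quantile normalization (adjusted p = 0.0529) and with only the KO arrays in the fit (adjusted p = 0.0515).

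Of the ligands, Il6 was called in WT and Il11 in KO. Il6 had signals of 3.86, 4.03 and 4.54 in KO CCI, against 3.75, 4.0 and 4.02 in KO sham, and 3.90, 4.21 and 4.39 in WT CCI, against 3.68, 3.85 and 3.94 in WT sham cortex. All Il6 values were below the lowest array median, and the injured and sham arrays overlapped. It rose 1.23-fold in WT (limma adjusted p = 0.0149), and the KO change of 0.18 did not pass (adjusted p = 0.171). Without the 7 arrays with striatum or choroid plexus signal the WT adjusted p was 0.133. Il11 changed by 0.17 in KO and 0.14 in WT (adjusted p = 0.0425 and 0.089), with overlap in both. The Il11 call in KO was lost when any of 11 single KO arrays was left out, with adjusted p values up to 0.113, and without the 7 arrays with striatum or choroid plexus signal (adjusted p = 0.22). The WT change passed without WT CCI replicate 15 (adjusted p = 0.0117) or WT sham replicate 27 (adjusted p = 0.0494). With quantile normalization Il11 was called in WT (adjusted p = 0.0399) and not in KO (adjusted p = 0.102). The differences of the injury changes were not called for Il6 (interval -0.37 to 0.14) or Il11 (interval -0.14 to 0.19). The remaining genes of this family, among them the subunits of IL-12, IL-23 and IL-27 and their receptors, were not called in either genotype.

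In the IL-10 family, 2 of 11 genes were higher in KO and 1 in WT, against 8.43% and 8.86% of all rows. Il10rb (chr16:91406157-91425834), the chain shared by the receptors of IL-10, IL-22 and interferon lambda, had signals of 7.28, 7.49 and 7.77 in KO CCI, against 7.00, 7.10 and 7.28 in KO sham cortex. In WT cortex they were 7.44, 7.70 and 7.87 after CCI, against 6.98, 7.19 and 7.27 after sham. Injured arrays lay above sham arrays in both genotypes without overlap. The change was 1.31-fold in KO (log2 0.39, SE 0.0746, limma adjusted p = 3.86e-04) and 1.4-fold in WT (log2 0.48, SE 0.0742, limma adjusted p = 1.77e-05). Il10ra, the chain that binds IL-10, was not called, with changes of 0.03 in KO and 0.22 in WT (adjusted p = 0.876 and 0.0516). The WT change of Il10ra was 0.36 and passed without the 7 arrays with striatum or choroid plexus signal (adjusted p = 0.00611), and 0.30 without WT CCI replicate 35 alone (0.00192). It also passed without WT sham replicate 2 (0.0341), with array quality weights (0.0137) and with only rows of 1 gene symbol (0.0341). Il10 itself, an anti-inflammatory cytokine, had changes of 0.08 and -0.12, neither called.

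Il19, a cytokine of the same family, had signals of 5.17, 5.22 and 6.13 in KO CCI, against 4.81, 4.99 and 5.10 in KO sham, and 5.08, 5.28 and 5.81 in WT CCI, against 4.72, 5.14 and 5.22 in WT sham cortex. The KO groups did not overlap, with most injured arrays just above the sham range and the highest well above it, and the WT groups overlapped. Il19 rose 1.36-fold in KO (adjusted p = 0.0128), and its WT change of 0.29 did not pass (limma adjusted p = 0.124). The difference between the genotypes had an interval of -0.21 to 0.52 and was not called. The WT change passed without KO CCI replicate 23 (adjusted p = 0.0457), whose omission alters only the shared spread.

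The ligands of the common gamma chain family, which are mainly products of lymphocytes or act on them, gave no call. None of the 7 ligands counted here (Il2, Il4, Il7, Il9, Il13, Il15 and Il21) was called in either genotype. Their changes lay between -0.06 and 0.07 in KO and between -0.11 and 0.08 in WT. Il13 and Il13ra1 are counted with this family for the receptor shared with IL-4, although the Il4ra and Il13ra1 pair holds no common gamma chain. Il15 had means of 5.17 ± 0.0746 in KO CCI and 5.11 ± 0.0433 in KO sham cortex, and of 5.11 ± 0.0518 in WT CCI and 5.11 ± 0.0531 in WT sham cortex (SD, n = 7). Beside Il4ra and Il13ra1, the 8 receptor genes held 1 other call, Il21r (chr7:125603252-125634397), which lies next to Il4ra on chromosome 7. Il21r signal was 5.33, 5.43 and 5.52 in KO CCI, against 5.22, 5.26 and 5.44 in KO sham, and 5.35, 5.43 and 5.54 in WT CCI, against 5.24, 5.32 and 5.44 in WT sham cortex. All 4 groups overlapped. Il21r changed by 0.15 in KO (adjusted p = 0.0141) and by 0.11 in WT (limma adjusted p = 0.0872), and the interval of the difference was -0.08 to 0.17. The KO call was lost with quantile normalization (adjusted p = 0.135) and with only the KO arrays in the fit (adjusted p = 0.0522). The WT change passed with only rows of 1 gene symbol (adjusted p = 0.0464) and without WT sham replicate 2 (0.037).

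The IL-17 family, cytokines of T cells and epithelia and their receptors, had no call among 11 genes in KO and 1 in WT. That call is a share near the 8.86% of all rows called higher in WT. Il17rc, a chain of the IL-17A and IL-17F receptor, had signals of 6.20, 6.36 and 6.46 in KO CCI, against 6.08, 6.21 and 6.30 in KO sham, and 6.23, 6.38 and 6.56 in WT CCI, against 6.13, 6.22 and 6.28 in WT sham cortex. Injured and sham arrays overlapped in both. It changed by 0.17 in WT (adjusted p = 0.021) and 0.14 in KO (limma adjusted p = 0.0742). The WT call was lost without any of WT sham replicate 4 (adjusted p = 0.055), WT CCI replicate 15 (0.0582) or WT CCI replicate 36 (0.0536). The KO change passed with array quality weights (adjusted p = 0.0479), with only rows of 1 gene symbol (0.0448), with only rows above the median row (0.0398), without KO sham replicate 31 (0.0429) and without KO CCI replicate 41 (0.0377). Il17ra, the common chain of these receptors, was not called, with intervals of -0.18 to 0.15 in KO and -0.07 to 0.26 in WT. Il17c, an epithelial ligand, came nearest among the uncalled genes on the low side, with changes of -0.19 in KO and -0.19 in WT (adjusted p = 0.05004 and 0.0566). Il17c was called lower in both genotypes with only rows of 1 gene symbol (adjusted p = 0.0327 and 0.036) and with quantile normalization (0.0113 and 0.0429), and in WT without the 7 arrays with striatum or choroid plexus signal (0.0424). No gene of the 4 in the common beta chain family (Il3, Il5, Il3ra and Il5ra) was called. Il34, a ligand of the microglial receptor Csf1r made by neurons, had means of 8.23 ± 0.135 in KO CCI and 8.25 ± 0.121 in KO sham cortex, and of 8.15 ± 0.164 in WT CCI and 8.05 ± 0.1 in WT sham cortex (SD, n = 7), and its injury change was not called.

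Most of the uncalled genes had narrow intervals. For 46 of the 54 genes called in neither genotype, 25 ligands, 18 receptors and 3 regulators, the 95% intervals of both injury changes lay within 0.25 of 0 on the log2 scale. A p that misses the threshold does not by itself show that a gene did not change, and most of the genes were dim. Only 20 genes had group means above the lowest array median of 5.79 in all 4 groups, namely 5 ligands (Il9, Il17d, Il18, Il33 and Il34), 14 receptors and 1 regulator (Il18bp), and 55 were below it in all 4. The planned comparison with negative control rows set a higher bar. Their 95th percentile averaged 10.28 and 10.26 in the CCI cortex of KO and WT, and 10.33 and 10.35 in their sham cortex, and 2 genes per group were above it, Il6st and Il33 in CCI cortex and Il6st and Il1rapl1 in sham cortex. Neither mark is a detection call, and signal close to background understates a fold change by an amount that was not tested. Among the 32 ligands whose mean over all arrays was not above 5.79, 5 were higher in KO and 4 in WT, with none lower. Among the 14 receptors above it, 6 were higher and 3 lower in KO, and 7 higher and 2 lower in WT. Of all rows, whatever their brightness, 8.43% were higher and 8.27% lower in KO, and 8.86% and 7.96% in WT.

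Some of the genes that act downstream of these receptors rose as well. Of 34 listed adaptors, kinases, transcription factors, inhibitors and inflammasome genes, 29 were measured. In KO, 16 of the 29 were higher and none lower, against 8.43% of all rows higher and 8.27% lower, with a median log2 change of 0.18. In WT, 18 were higher and 2 lower, against 8.86% and 7.96% of all rows, with a median of 0.19. Without the 7 arrays with striatum or choroid plexus signal, 15 were higher and none lower in KO, and 15 higher and 1 lower in WT. Of all 65956 rows, that fit called 4993 higher and 4578 lower in KO, and 4812 higher and 4185 lower in WT. Stat3, which gp130 cytokines activate, rose 2.51-fold in KO and 2.82-fold in WT (limma adjusted p = 3.76e-13 and 1.62e-14). Myd88, the adaptor of IL-1 and IL-18 receptors, changed by 0.78 and 0.91 (adjusted p = 2.30e-08 and 7.37e-10). Casp1, the protease that matures IL-1 beta and IL-18, changed by 0.85 and 0.66 (adjusted p = 5.73e-05 and 8.06e-04). Rela, an NF-kappaB subunit, changed by 0.54 and 0.73, Casp4, the inflammatory caspase-11 of mice, by 0.59 and 0.67, and Stat2, which interferon receptors use, by 0.43 and 0.69, all called in both genotypes.

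Of 23 listed cytokines and receptors outside the Il symbols, 19 were measured. In KO, 10 were higher and 2 lower, against 8.43% of all rows higher and 8.27% lower. In WT, 10 were higher and 1 lower, against 8.86% and 7.96% of all rows. Without the 7 arrays with striatum or choroid plexus signal, 11 were higher and none lower in each genotype. The all-row counts of that fit are given above. The genes that had been lower were Lifr, the LIF receptor chain, in both genotypes, with adjusted p values of 0.0768 in KO and 0.0772 in WT without those arrays, and Cntfr, the CNTF receptor chain, in KO (0.0926), a call that any of 8 single arrays also ended. Osmr, which pairs with gp130 to bind oncostatin M, changed by 2.14 in KO and 2.48 in WT (limma adjusted p = 1.34e-12 and 2.78e-14), more than any Il gene in either genotype. Csf1, the ligand of the macrophage and microglial receptor Csf1r, changed by 0.99 and 1.14, and Csf1r by 0.78 and 1.31. Tgfb1 changed by 0.82 and 0.98, its receptor chain Tgfbr2 by 0.69 and 0.81, and Csf3r, the neutrophil growth factor receptor, by 0.70 and 0.89, all called in both genotypes.

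Leukocyte markers moved with these genes and with the interleukin receptors. Besides the counts given above, the mean of 6 monocyte and macrophage markers was 7.7 to 8.65 in KO CCI and 6.82 to 7.13 in KO sham cortex, and 8.04 to 8.71 in WT CCI and 6.94 to 7.05 in WT sham cortex. For 6 neutrophil markers it was 5.61 to 6.39 in KO CCI and 4.95 to 5.1 in KO sham cortex, and 5.82 to 6.91 in WT CCI and 5.04 to 5.67 in WT sham cortex. Of 4 measured microglia genes, 1 was higher and 1 lower in KO and 1 higher in WT, with means of 7.21 to 7.92 in KO CCI and 7.16 to 7.39 in KO sham cortex, and 7.16 to 7.9 in WT CCI and 7.11 to 7.28 in WT sham cortex. Endothelial markers moved too. Of 4 endothelial genes, 2 were higher in KO and 3 in WT, with means of 8.43 to 8.9 in KO CCI and 8.09 to 8.6 in KO sham cortex, and 8.93 to 9.26 in WT CCI and 8.21 to 8.57 in WT sham cortex. The part of these leukocyte and endothelial markers in the receptor and ligand changes was not tested.

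The second question was whether loss of Rbm5 altered interleukin expression. After CCI, none of the 77 genes differed between KO and WT in limma (0 at adjusted p under 0.05, 4 at unadjusted p under 0.05), against 0.653% of all rows called. After sham the count was also 0 (6 at unadjusted p under 0.05), against 1.28% of all rows. For the difference of the injury changes between KO and WT it was 0 (4 at unadjusted p under 0.05), as it was for all rows (0%). The 95% intervals of the 77 genes lay between -0.41 and 0.34 after CCI, between -0.33 and 0.72 after sham, and between -0.92 and 0.52 for the difference of the injury changes.

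The smallest p-values after CCI belonged to Il13ra1, Il1f5 and Il1b. Il13ra1 averaged 8.92 ± 0.159 in KO CCI and 9.16 ± 0.215 in WT CCI cortex (SD, n = 7), a difference of -0.24 (interval -0.41 to -0.07, limma adjusted p = 0.251). Il1f5, an antagonist of IL-36 receptors, averaged 4.66 ± 0.116 and 4.50 ± 0.0951, a difference of 0.16 (adjusted p = 0.314). Il1b averaged 5.41 ± 0.188 and 5.62 ± 0.209, a difference of -0.21 (adjusted p = 0.354). The KO CCI and WT CCI arrays overlapped for all 3. Il4ra differed by -0.19 (limma adjusted p = 0.569) with all arrays. Without the 7 arrays with striatum or choroid plexus signal it differed by -0.48 (limma adjusted p = 0.0432). This was the only genotype call of an interleukin gene in any alternative run. The WT CCI arrays kept there were replicates 15, 34 and 36, with Il4ra signals of 8.73, 8.83 and 9.02. Those set aside, replicates 13, 14, 16 and 35, had 8.21, 8.30, 8.17 and 8.75. Beside these values, Pecam1 and Cdh5, 2 of the 4 endothelial markers, were called lower in KO CCI than in WT CCI cortex. The differences were -0.34 and -0.49 (limma adjusted p = 0.0228 and 0.0197), and 282 of all 65956 rows were called lower there. Without those 7 arrays the differences were -0.45 and -0.60, and neither was called (limma adjusted p = 0.0721 and 0.127). The endothelial list means given above did not overlap between KO CCI and WT CCI, and their part in the interleukin values was not tested.

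In sham cortex the smallest p-values belonged to Il10, Il34 and Il33. Il10 had signals of 4.37, 4.44 and 4.50 in KO sham, against 4.51, 4.56 and 4.78 in WT sham cortex. These ranges did not overlap, KO being lower by 0.17 on the log2 scale, but all values were below the lowest array median and the difference did not pass (limma adjusted p = 0.109). Il34 averaged 8.25 ± 0.121 in KO sham and 8.05 ± 0.1 in WT sham cortex, a difference of 0.20 (adjusted p = 0.231). Il33 averaged 10.21 ± 0.318 and 9.84 ± 0.2, a difference of 0.39 (adjusted p = 0.333). Il34 and Il33 arrays overlapped between the genotypes. Of 5 astrocyte markers, 1 was called higher in KO sham than in WT sham cortex and none lower, namely Gfap (log2 1.36, adjusted p = 0.0263), a call lost without the 7 arrays, and its part in the Il33 value was not tested.

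**Figure D4:**
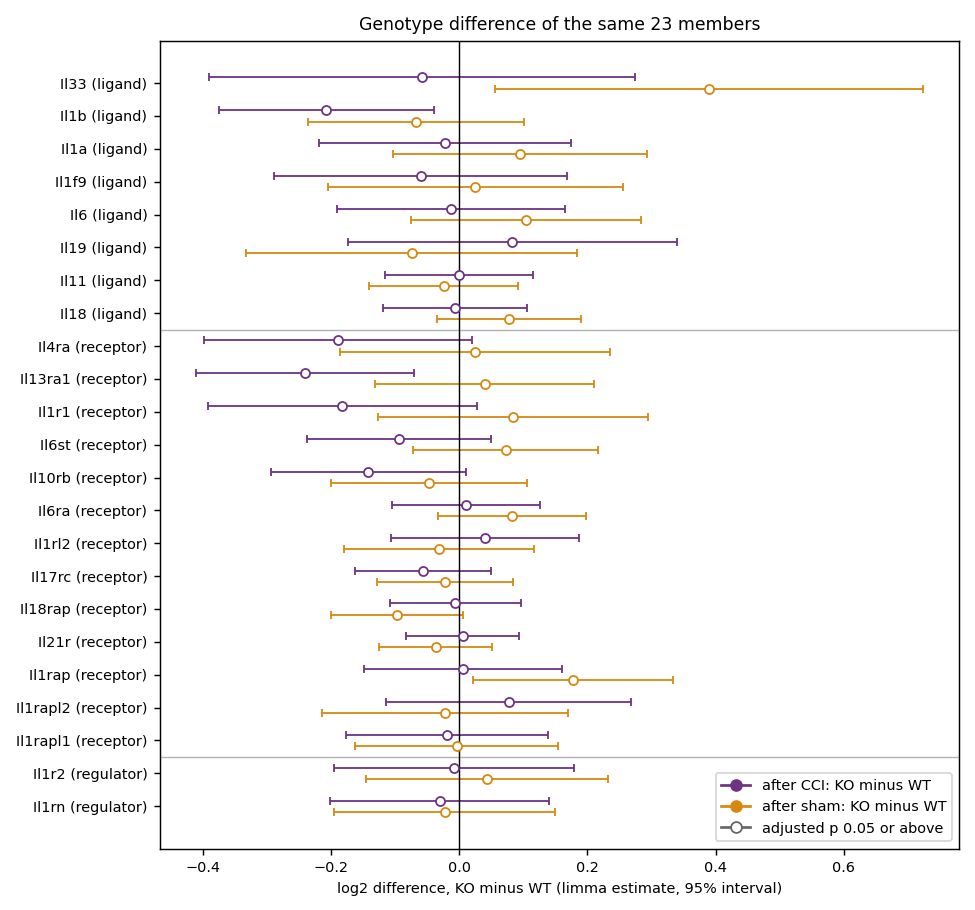
Log2 difference KO minus WT (horizontal axis, limma estimate with 95% interval) of the 23 genes called for injury in either genotype, after CCI in purple above after sham in orange. All circles are open, since no difference had an adjusted p under 0.05; the Il33 estimate after sham lies farthest to the right and the Il13ra1 estimate after CCI farthest to the left.

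For the difference of the injury changes, Il10, Il13ra1 and Il16 had the smallest p-values. The Il13ra1 injury change was smaller in KO by 0.28 (interval -0.52 to -0.04, limma adjusted p = 0.779). For Il10 the difference was 0.20 (adjusted p = 0.779), and for Il16, a chemoattractant for CD4+ cells, it was 0.13 (adjusted p = 0.804). The estimate farthest from 0 was that of Il33, whose injury change was smaller in KO by 0.45 (interval -0.92 to 0.02, adjusted p = 0.813). Among the 16 genes called in both genotypes, 13 had a smaller absolute change in KO, none of them by a difference that passed the test. The same count was not made over all rows. The genes were measured on the same arrays, so they are not independent of one another. Outside the Il symbols, 3 genes of the signalling and related lists were called between genotypes. Stat6 was lower in KO CCI than in WT CCI cortex by 0.20 (adjusted p = 0.046), and the call was lost when any of 21 single arrays was left out and without the 7 arrays with striatum or choroid plexus signal (adjusted p = 0.195). Csf2ra, a chain of the GM-CSF receptor, was higher in KO CCI by 0.30 (adjusted p = 0.0331), and Lif, a gp130 cytokine, was lower in KO sham by 0.20 (adjusted p = 0.0345). Leaving out any of 7 single arrays ended the Csf2ra call, and any of 9 the Lif call. Without the 7 arrays with striatum or choroid plexus signal, the Csf2ra difference was 0.18 (adjusted p = 0.472), and Lif was still called (adjusted p = 0.0132).

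The sample titles carry numbers in runs of 1 to 24 and 25 to 42, which the labels do not call batches. The first run held 4 arrays of every group and the second 3. All 21 genes called for injury in KO and all 18 called in WT changed in the same direction within each run. These genes were called on the arrays of both runs together, which favours the same direction in each, so this is not a replication. Each run held fewer arrays than the whole. Of the 21 KO and 18 WT calls, 7 and 7 were lost in the first run, and 16 and 5 in the second. Over all rows, KO and WT had 7509 and 5900 injury calls in the first run, and 2567 and 5217 in the second. The genes called within both runs numbered 5 in KO and 10 in WT. With any single array left out, 18 of the 21 KO calls and 16 of the 18 WT calls stayed.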

How the data were processed

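Cortical RNA of 28 mice was measured on MTA 1.0 arrays, 1 array per animal. The deposited table holds log2 values, as read from the values themselves, which range from 2.21 to 19.93. The software and the normalization behind them are not given in the sources used here. The values were used as deposited. Of 72688 rows, 6732 array controls were left out. Gene names came from the platform annotation: 30604 rows had 1 symbol, 2146 several and 33206 none, and 92 were left unnamed because the annotated chromosome disagreed with the RefSeq annotation of GRCm38.p6. Il2rg, Il1rl1 and Il11ra1 had no row with a single symbol and were not analysed here.

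limma 3.58.1 in R 4.3.3 (lmFit, eBayes) was fitted to all 28 arrays with 4 group means and a sex term, with Benjamini-Hochberg adjustment over all 65956 rows. Positive log2 changes mean higher after CCI or in KO. The fit was tested on simulated data in which few rows changed. Of log2 changes of 0.25, 32% were called for injury in KO and 24% in WT. Between genotypes, 32% were called after CCI and 36% after sham, and 2% for the difference of the injury changes. Of changes of 0.5, the shares in the same order were 79%, 88%, 72%, 79% and 46%. In the data, 11017 rows were called for injury in KO and 11094 in WT. The adjustment is less strict where so many rows change, so the simulated injury shares do not carry over to those comparisons. Named were a fixed set of members, up to 8 per role called in both genotypes, those called in 1 genotype alone, and, in comparisons without a call, the 3 with the smallest p. Il18r1, Il17c, Lifr, Cntfr, the leukocyte, glial and endothelial markers and the neighbouring positions were added after values were seen. The members, lists and roles were chosen with earlier results of these data known. Figures used Python 3.11.15, pandas 2.3.3 and matplotlib 3.10.9.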

Additional observations from a re-analysis of the deposited data

Results flagged for a closer look

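In 7 of the 124 groups of 7 arrays tested over 31 interleukin genes, 1 array stood apart, its gap to the nearest other array divided by the group's range being above Dixon's critical value for 7 arrays. Chance flags about 1 in 20 such groups. Il1a was at 4.86 in KO sham replicate 12, below the nearest other array at 5.21. Il1f9 was at 4.38 in WT sham replicate 25, above the nearest at 4.23. WT CCI replicate 35 was high for both Il18rap, at 5.22 with the nearest array at 5.01, and Il1r2, at 5.64 with the nearest at 5.05. Il4ra was at 8.77 in KO CCI replicate 42, with the nearest at 8.45. Il11 was at 4.76 in KO sham replicate 9, with the nearest at 4.68. Il10 was at 4.78 in WT sham replicate 3, with the nearest at 4.60. Without WT CCI replicate 35 the Il18rap call in WT was lost, and no other of these arrays ended an injury call of the gene it stood apart in.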

How the results depend on the processing

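Leaving out each array in turn moved the count of called interleukin genes between 19 and 22 in KO and between 17 and 20 in WT, and left it at 0 (0 to 0) in both genotype comparisons and in the difference of the injury changes. The median changes then ranged from 0.0048 to 0.045 (ligands, KO), -0.032 to -0.0026 (ligands, WT), 0.034 to 0.058 (receptors, KO) and -0.0077 to 0.024 (receptors, WT). Counts moved over 1.5 times with fewer arrays or rows: 5 genes were called in KO with only title numbers 25 to 42, 11 in WT with only 1 to 24, and 12 in KO and 10 in WT with only rows above the median row, where 20 of the genes remained to be tested. Without the 7 arrays with striatum or choroid plexus signal, 1 gene was called between KO CCI and WT CCI. The ligand median in KO was 0.063 in title numbers 25 to 42, -0.022 over rows above the median row and -0.019 with centred arrays. The ligand median in WT was -0.069 over rows above the median row. The receptor medians over those rows were 0.089 in KO and 0.132 in WT, and the KO receptor median was -0.00151 with centred arrays. Of the results for the called genes and those with the smallest genotype p under all alternatives, 2091 kept direction and side of the threshold, 68 kept direction and fell short of it, 11 passed it newly, and 0 reversed. Each symbol had 1 row, so the mean over rows of a symbol was not run. No paired analysis was possible because the title numbers are not shared between groups.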
